A study of Rattus norvegicus with 4 samples.

Results

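The genes described here carry peptide antigens to T cells in the rat: the histocompatibility genes, whose symbols start with RT1-, and 15 genes that supply peptide, assemble the complexes or switch them on. They were chosen by gene symbol, with earlier results of these data known. The array annotation held 48 such genes on 94 of the 45220 array features, out of 14871 genes named in all, and Nlrc5 had no feature under that symbol. Of the 48 genes, 25 were grouped by symbol as class I chains, 9 as class II chains and 12 as peptide supply and loading of class I. The other 2 are Cd74 and Ciita. In the class I group, RefSeq annotates RT1-CE6, RT1-M10-1 and RT1-T24-2 as long non-coding RNAs.

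The samples were kidney allografts in Lewis rats (strain Lew for both channels; the donor strain is not given in the sources used here). All animals carried an allogeneic kidney and received daily intravenous peptide from the day of transplantation, either an ApoE-mimetic peptide at 6 mg/kg or a control peptide, and the grafts were taken on day 4. An ApoE-mimetic graft and a control graft were hybridised together on each of 4 Agilent arrays, with the ApoE-mimetic RNA labelled in Cy5 for replicates 1 and 3 and in Cy3 for replicates 2 and 4. The design text calls the replicates biological, and the 4 pairs are the n of every comparison.

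Class I molecules display peptides from inside the cell to CD8 T cells on nearly all cells. A heavy chain pairs with beta-2 microglobulin, and its peptide is cut by the proteasome, pumped into the endoplasmic reticulum by the TAP transporter and loaded with the help of tapasin, calreticulin and the disulfide isomerase ERp57. Class II molecules display peptides from endosomes to CD4 T cells, mainly on dendritic cells, macrophages and B cells, and the invariant chain Cd74 guards their groove until the DM proteins exchange it for peptide. Interferon gamma raises both sets of genes, and foreign class I and class II molecules are the main targets of the recipient's T cells in an allograft.

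Promoters of 4 members are shown because interferon and class II control act near the start of transcription. Each is the first 250 bases of a RefSeq promoter window set before 1 start of the gene, and for RT1-A2, B2m and Tapbp the outermost annotated start lies inside it, so the last part can be transcribed. They come from RefSeq (GRCr8), where 40 of the 48 genes had an entry, and are read 5′ to 3′ on the gene's strand. RT1-A2 (a class I chain) is at chr20:4872621-4872870 (+), B2m at chr3:129549080-129549329 (+), Tapbp (tapasin) at chr20:4967878-4968127 (-) and RT1-Ba (a class II chain) at chr20:4576807-4577056 (+). Capitals mark the letters GGGATTCCC in RT1-A2 (a class I kappa B motif), a pair of GAAA with 2 bases between them in B2m and Tapbp (an interferon-stimulated response element), TGACGTCA in RT1-Ba (a cAMP response element), and CCAAT in RT1-A2, B2m and RT1-Ba, each searched on both strands. In Tapbp 2 matches overlap.
RT1-A2: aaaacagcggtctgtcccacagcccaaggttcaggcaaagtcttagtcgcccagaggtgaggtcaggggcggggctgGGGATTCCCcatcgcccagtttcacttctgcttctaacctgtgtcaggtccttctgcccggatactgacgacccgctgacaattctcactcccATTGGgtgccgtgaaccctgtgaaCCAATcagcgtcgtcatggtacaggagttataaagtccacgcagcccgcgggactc
B2m: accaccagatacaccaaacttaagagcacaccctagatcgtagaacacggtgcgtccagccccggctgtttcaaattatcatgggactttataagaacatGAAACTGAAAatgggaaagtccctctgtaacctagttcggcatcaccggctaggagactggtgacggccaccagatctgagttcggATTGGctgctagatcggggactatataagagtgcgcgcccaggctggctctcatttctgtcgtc
Tapbp: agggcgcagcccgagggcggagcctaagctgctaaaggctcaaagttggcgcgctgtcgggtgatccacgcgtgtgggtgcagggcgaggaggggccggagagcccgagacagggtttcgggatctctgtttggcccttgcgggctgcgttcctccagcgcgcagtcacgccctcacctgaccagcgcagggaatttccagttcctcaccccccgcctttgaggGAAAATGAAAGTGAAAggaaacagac
RT1-Ba: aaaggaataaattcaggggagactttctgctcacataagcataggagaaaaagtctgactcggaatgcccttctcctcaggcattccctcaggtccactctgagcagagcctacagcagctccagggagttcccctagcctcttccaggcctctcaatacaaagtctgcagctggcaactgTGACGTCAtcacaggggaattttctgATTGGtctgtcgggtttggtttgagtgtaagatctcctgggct
Among all 33469 promoters of this length, 3.41% held the interferon element, 0.272% GGGATTCCC, 34.0% CCAAT and 1.59% TGACGTCA. The interferon element was in 6 of 10 supply and loading promoters (B2m, Psmb10, Psme2, Tap1, Tap2 and Tapbp), 2 of 21 class I chains (RT1-N3 and RT1-S3) and 0 of 8 class II chains. GGGATTCCC was in 5 of 21 class I promoters (RT1-A2, RT1-A3, RT1-CE10, RT1-CE16 and RT1-CE4) and in no promoter of the other roles searched here. CCAAT was in 8 of 8 class II promoters, 14 of 21 class I promoters and 3 of 10 supply and loading promoters. TGACGTCA was in 1 of 8 class II promoters, that of RT1-Ba shown here. It was in 0 of 21 class I promoters and 0 of 10 supply and loading promoters. A match says only that these letters stand in this window.

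Each deposited value is taken as a log2 ratio of the channels of an array, a difference between 2 samples and not a level, and the table does not state which channel is the numerator. A feature is called resolved here when it was neither dim nor saturated on any array, by the signs given in the next paragraph, which holds for 13363 features. Replicates 1 and 3 were dyed alike, but their Pearson correlation was -0.657 over the resolved features, -0.238 over all features and -0.55 over the 35 members with a resolved one. For replicates 2 and 4, also dyed alike, it was -0.043 over resolved features. Pairs dyed oppositely did not share a sign over resolved features. Replicates 1 and 4 had 0.393 and replicates 2 and 3 had 0.423, but replicates 1 and 2 had -0.426 and replicates 3 and 4 had -0.267. The points of a pair share 2 arrays and are not independent. Both readings used below give replicates 1 and 3 the same sign, so the correlation of these arrays cannot tell the direction of the comparison. Its negative value means that they disagreed under either reading. Since the direction is not stated, ratios are given as deposited on each array, and fitted values under both readings. The peptide reading takes the columns as Cy5 over Cy3 and turns replicates 2 and 4. The as-deposited reading takes them as already turned to one direction. If Cy3 is the numerator every sign turns. Replicate 4 had the widest spread over all features, with an SD of 1.26 against 0.87 to 0.89, but the narrowest over genes with resolved features, 0.58 against 0.66 to 0.71.

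Some member features were too dim or too bright to give a ratio. A value held by more than 2 features of an array is taken as a sign of a dim feature, and the single shared value next to 0, held by 104 to 230 features an array, as a sign of saturation in both channels. Of the 94 member features 51 were resolved, 18 were dim on at least 1 array and 25 were saturated on at least 1. The 25 saturated features belonged to B2m, Cd74, Psmb9, Psmb10, RT1-A2, RT1-Bb, RT1-Da and class I genes of the CE and M6 groups. Saturation differed by array, with 25 member features on replicate 1, 15 on replicate 2, 23 on replicate 3 and 12 on replicate 4. Dim values were held by 9 to 16 of the 94 member features on an array, beside 22940 to 27757 of all 45220. Resolved features left 35 of the 48 genes: 15 of 25 class I chains, 8 of 9 class II chains, 10 of 12 supply and loading genes, and both Cd74 and Ciita. Among the 13 genes without one, B2m, Psmb9, RT1-CE1 and RT1-CE2 met saturation, RT1-M6-2 had a dim and a saturated feature, and RT1-CE6, RT1-M1-4, RT1-M10-1, RT1-M2, RT1-M4, RT1-M5, RT1-T24-2 and RT1-DOb were dim.

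B2m, the shared light chain of class I, could not be compared between the peptides. It had 14 features, of which 12 held the saturated value on all 4 arrays. A feature listed at the saturated value gives only a lower bound on each channel and none on their ratio, so a ratio next to 0 does not show equal levels. The gene mean over all features, 0.05, 0.06, -0.02 and -0.05 on replicates 1 to 4, rests on the 2 features that were not saturated throughout, 1 of them dim. The other, saturated on replicate 1, had -0.25, -0.09 and -0.34 on replicates 2, 3 and 4.

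Most class I chains with a resolved feature were below 0 on all 4 arrays, beside 30.6% of the 6731 genes with resolved features. RT1-A2, a classical class I chain, had deposited ratios of -0.19, -0.74, -0.27 and -0.75 on replicates 1 to 4. RT1-CE12 had -0.13, -0.74, -0.32 and -0.76, and RT1-CE4 -0.35, -0.52, -0.41 and -0.77. All were below 0 on 4 of 4 arrays, closest to 0 on replicate 1 and farthest on replicate 4. These are deposited ratios, and the median of all genes with resolved features was itself lowest on replicate 4, at -0.65. On replicate 1 that median was -0.42, and RT1-A2, RT1-CE12 and RT1-CE4 all stood above it there. RT1-CE5 had -0.08, -0.77, -0.50 and -1.19. RT1-CE7 had -0.31, -0.74, -0.44 and -1.08. RT1-CE3 had -0.11, -0.84, -1.002 and -1.11. These CE genes lie in a cluster of class I genes so alike in sequence that a feature may take up RNA of its neighbours, so their ratios are not independent measurements.

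Class I chains away from the CE cluster gave like values. RT1-N3 had -0.34, -0.78, -0.64 and -1.06. RT1-S3 had -0.26, -0.63, -0.30 and -0.96. RT1-T24-1 had -0.23, -0.71, -0.58 and -1.24. As deposited, each was again lowest on replicate 4 and highest on replicate 1. With the array's median over genes with resolved features subtracted, the class I median was lowest on replicate 2, at -0.64, against -0.27 on replicate 4. RT1-T18 had -0.06, -0.46, -0.26 and -1.03 by its resolved feature. RT1-M3-1, whose mouse counterpart H2-M3 presents N-formylated peptides, had -0.42, -0.76, -0.15 and -0.58, and unlike these chains its highest ratio was on replicate 3.

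A minority of class I chains departed from this on replicate 3. RT1-CE10 had -0.57, -0.27, 0.90 and -0.92, RT1-CE15 had -0.52, -0.59, 0.45 and -0.89, and RT1-A3 had -0.51, 0.08, 0.26 and -0.24. They were the only 3 of the 15 resolved class I genes with a ratio above 0 on replicate 3, where the other 12 lay between -1.002 and -0.15. On replicate 1 the same 3 genes had the lowest ratios of the 15. Tap2 and Erap1 of the supply genes, like RT1-CE10 and RT1-CE15, were above 0 on replicate 3 alone.

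**Figure D1:**
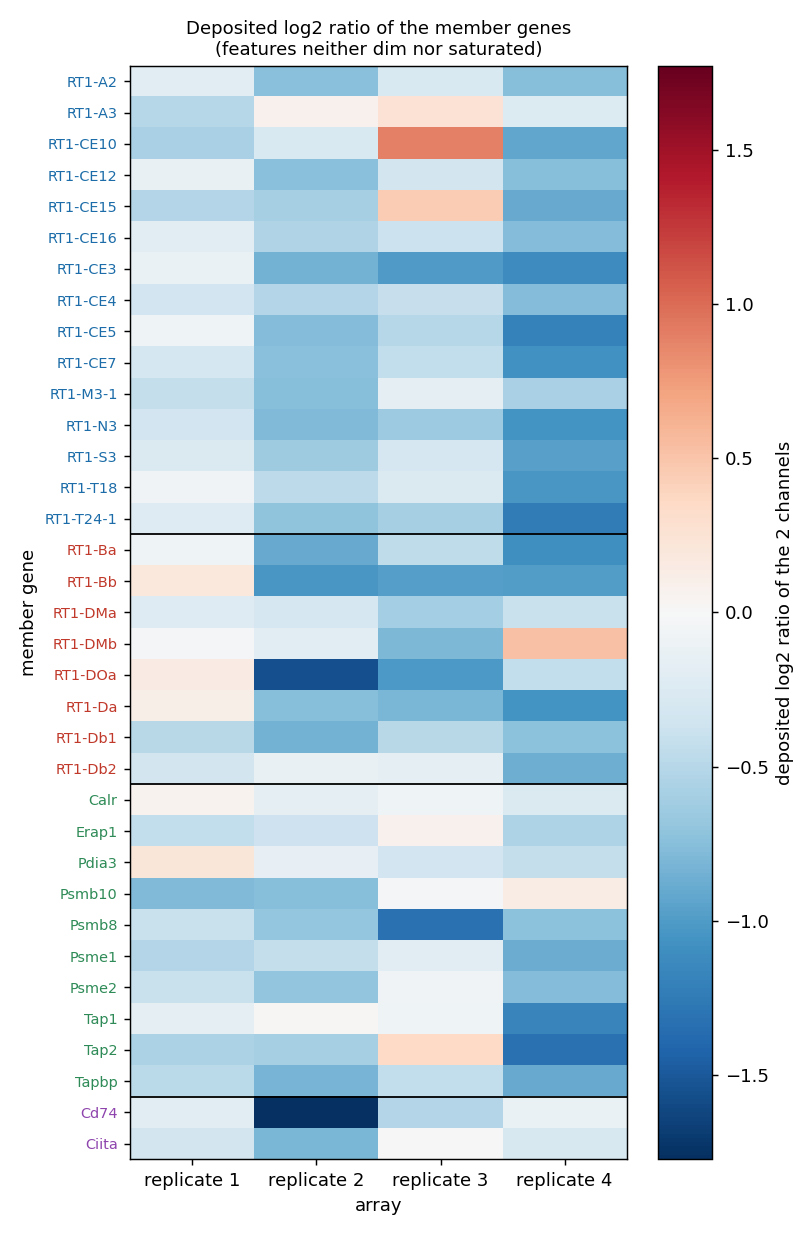
Heat map of the deposited log2 ratio (colour) of the 35 member genes with a resolved feature, in rows by role, on the 4 arrays in columns. Blue is below 0 and red above: class I chains are blue throughout except RT1-A3, RT1-CE10 and RT1-CE15 on replicate 3 and RT1-A3 on replicate 2, and Cd74 on replicate 2 is the lowest cell at -1.77.

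RT1-CE16 gave the spread among spots within an array, since 10 spots bear 1 sequence accession and were all resolved. Their mean was -0.20 ± 0.14 (SD, n = 10 spots) on replicate 1, -0.53 ± 0.08 on replicate 2, -0.38 ± 0.12 on replicate 3 and -0.77 ± 0.08 on replicate 4. The spots ranged from -0.49 to -0.03 on replicate 1 and from -0.93 to -0.65 on replicate 4, so those arrays did not overlap. The SD between the 4 array means was 0.24, which also holds the offsets of the arrays and their dye orientation. Spots on an array share its 2 samples and are not replicates of the peptides.

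**Figure D2:**
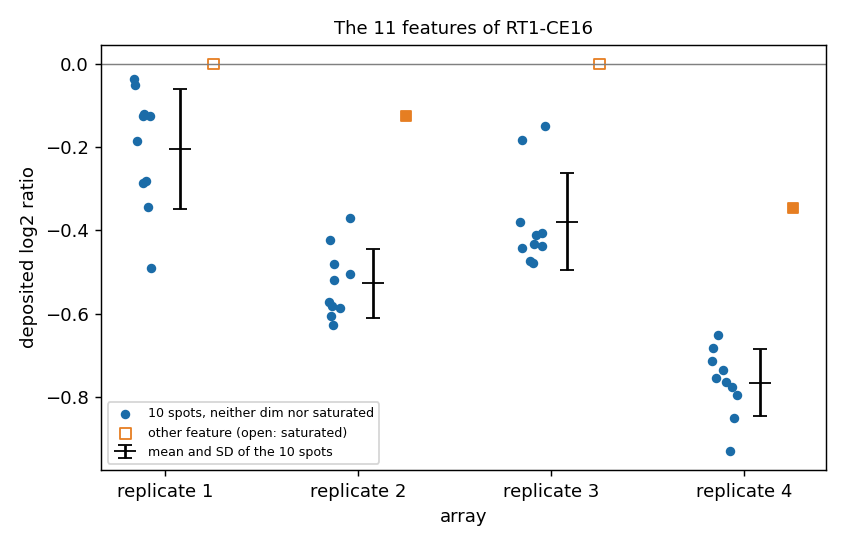
Deposited log2 ratio (vertical axis) of the 11 features of RT1-CE16 on each array (horizontal axis), with 10 spots of 1 accession as points, their mean and SD (n = 10), and the other feature as a square, open where saturated. The square lies nearer to 0 than all 10 spots on replicates 2 and 4, at -0.12 and -0.34.

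In the genes compared here, features near the top of the scanner's range mostly gave smaller absolute ratios than resolved features of the same gene. RT1-A2, RT1-CE12, RT1-CE16, RT1-CE4 and RT1-Da each had a feature saturated on replicates 1 and 3 but not on 2 and 4, beside at least 1 resolved feature. On replicates 2 and 4 the saturating feature had the smaller absolute ratio in 10 of 10 pairs of values. Cd74 and Psmb10, outside these pairs, each had a feature saturated on replicates 1 to 3. On replicate 4 that of Cd74 had the larger absolute ratio, -0.18 against -0.12, and that of Psmb10 the smaller, -0.025 against 0.13. RT1-Da, the alpha chain of the RT1.D class II molecule, differed most, with -0.05 against -0.75 on replicate 2 and -0.31 against -1.06 on replicate 4. RT1-A2 had -0.28 against -0.74 and -0.55 against -0.75. A gene mean over all features is pulled toward 0 by such features, and RT1-CE1 and RT1-CE2, with no other feature, had only -0.03 and -0.0055 on replicate 2 and -0.23 and -0.28 on replicate 4.

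The chains of the class II molecules ran below 0 on replicates 2 and 3 and spread about 0 on replicate 1. RT1-Ba and RT1-Bb, the alpha and beta chain of RT1.B, the counterpart of mouse I-A, had -0.08, -0.89, -0.46 and -1.08, and 0.18, -1.03, -0.98 and -0.99. The 2 resolved features of RT1-Ba parted on replicate 2, at -0.40 and -1.38, and on replicate 3, at -0.05 and -0.86. RT1-Da had 0.10, -0.75, -0.81 and -1.06 by its resolved feature. Its partner RT1-Db1 had -0.49, -0.84, -0.50 and -0.72 as the mean of 4 resolved features. RT1-Bb and RT1-Da were thus above 0 on replicate 1 alone, while RT1-Db1 was below 0 on all arrays. RT1-Db2 had -0.33, -0.13, -0.16 and -0.87.

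The genes that edit class II peptides did not follow the chains on every array. RT1-DMa, a subunit of the DM exchange factor, had -0.23, -0.30, -0.60 and -0.39. Its partner RT1-DMb had -0.04, -0.20, -0.80 and 0.52, the only class II ratio above 0 on replicate 4 among resolved genes. RT1-DOa, a subunit of the DO protein that restrains DM, had 0.15, -1.55, -1.02 and -0.43, the lowest value among resolved class II genes on replicates 2 and 3. RT1-DOb, its partner, was dim on replicates 1, 2 and 4, and its ratios ran from -2.19 to 1.80.

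**Figure D3:**
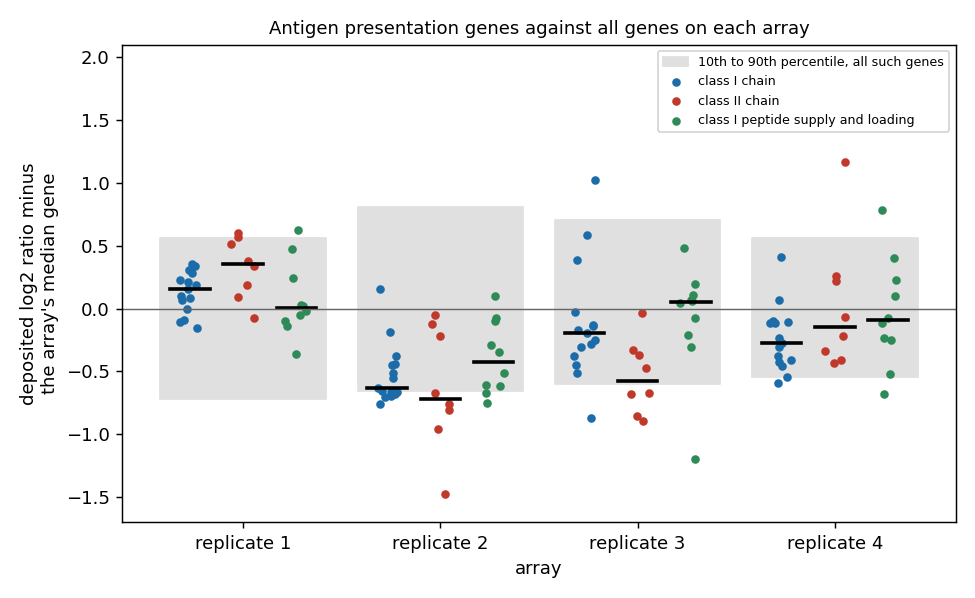
Deposited log2 ratio minus the array's median over 6731 genes with resolved features (vertical axis) for 15 class I chains, 8 class II chains and 10 supply and loading genes on each array (horizontal axis); bars are medians and grey boxes span the 10th to 90th percentile of those 6731 genes. Class I and class II medians lie above 0 on replicate 1 and below 0 on replicates 2, 3 and 4.

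By resolved features, the class I and class II medians lay on the same side of the median gene on all 4 arrays. Against the median of the 6731 genes with resolved features, which was -0.42, -0.08, -0.13 and -0.65 on replicates 1 to 4, the class I median differed by 0.16, -0.64, -0.19 and -0.27. The class II median differed by 0.36, -0.72, -0.57 and -0.15. Class I minus class II was -0.20, 0.08, 0.38 and -0.13, so class II was the lower class on replicates 2 and 3 and class I on replicates 1 and 4. By gene means over all features the sides parted on replicate 4, where the class I median differed from the median gene by -0.26 and the class II median by 0.12. Class I minus class II was then -0.14, 0.03, 0.40 and -0.38, the same order, but over single features class I was the higher on replicate 4, at 0.04. These are descriptions of 4 arrays with no test.

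Above the median gene on replicate 1 and below it on the other 3 arrays stood 11 of 15 class I chains, 4 of 8 class II chains (RT1-Ba, RT1-Bb, RT1-Da and RT1-Db2) and 1 of 10 supply and loading genes (Psmb8). The background was 11.9% of the 6731 genes. This order of sides was picked after the values were seen, and class I features may share RNA, so the count is a description.

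T cell markers followed the same sides. Of the 8 markers measured, 7 had a resolved feature, and all 7 were above the median gene on replicate 1 and below it on replicates 2, 3 and 4, with deposited ratios of 0.01 to 1.12, -2.27 to -1.62, -2.61 to -1.18 and -2.41 to -1.05. Macrophage markers, of which 5 of 6 were resolved, had 5 above the median gene on replicate 1, 1 on replicate 2, 0 on replicate 3 and 3 on replicate 4. Of 5 B cell markers 2 were measured (Cd79b and Ms4a1) and of 6 dendritic cell markers 5, and 0 of these 7 genes had a resolved feature, so 2 main class II-bearing cell types could not be followed. The part of these cells in the class I and class II ratios was not tested, and fewer cells of a type and less RNA per cell cannot be told apart in bulk tissue. Of 6 proximal tubule markers 5 were resolved, and 0, 4, 5 and 2 of them were above the median gene on replicates 1 to 4. Of 5 endothelial markers 3 were resolved, with 0, 3, 2 and 0 above it.

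Among the peptide supply and loading genes, Tapbp, encoding tapasin, had -0.47, -0.83, -0.44 and -0.90. Tap1 and Tap2, the subunits of the peptide transporter, had -0.17, 0.02, -0.07 and -1.17, and -0.56, -0.59, 0.35 and -1.33. The transporter genes parted on replicates 2 and 3 and were both lowest on replicate 4, as was the median gene. Psme1 and Psme2, which form the interferon-induced PA28 activator of the proteasome, had -0.52, -0.42, -0.20 and -0.88, and -0.39, -0.69, -0.06 and -0.76. Both were below 0 on every array.

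Immunoproteasome subunits were split by saturation. Psmb8 had -0.39, -0.69, -1.32 and -0.73 as the mean of 2 resolved features, which on replicate 3 were far apart at -2.52 and -0.13. Psmb10 had -0.78, -0.75, -0.02 and 0.13 by 1 feature, while its other feature was saturated on replicates 1 to 3. Psmb9 was saturated on replicates 1 to 3 and had -0.39 on replicate 4. In the GRCr8 annotation Psmb8, Tap1 and Psmb9 are neighbours between class II genes, and Tap2 lies beside them. Calr, encoding calreticulin, had 0.06, -0.18, -0.08 and -0.25, the smallest range over the arrays among the 35 resolved members. Pdia3, encoding ERp57, had 0.21, -0.15, -0.34 and -0.42. Erap1, which trims peptides for class I, had -0.44, -0.37, 0.07 and -0.55.

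Cd74, the invariant chain, had -0.19, -1.77, -0.51 and -0.12 by its resolved feature. Its value on replicate 2 was the lowest of all 35 genes on that array, and its other features were dim or saturated on at least 1 array. Ciita, the transactivator that switches class II genes on, had -0.33, -0.81, -0.0044 and -0.29. Both were lowest on replicate 2, where every class II chain was also below the median gene.

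As deposited, 22 of the 35 resolved members, or 62.9%, were below 0 on all 4 arrays and 0 were above 0 on all 4. The background was 30.6% of the 6731 genes below 0 and 0.52% above. By role the count below 0 was 12 of 15 class I chains, 4 of 8 class II chains, 4 of 10 supply and loading genes and both Cd74 and Ciita. With means over all features it was 21 of 48 genes, against a background of 15.6%. The array offsets enter these counts: after subtracting each array's median gene, 3 of 35 members were below it on all arrays, against a background of 3.67%, and 0 of 15 class I chains. The members' median on a single array differed from that of all resolved genes by 0.16, -0.62, -0.21 and -0.12.

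Neither reading gave a call among the members. In the limma fit 0 of 48 members had an adjusted p under 0.05, and the background was 0% of 14871 genes in the peptide reading and 0% of 14863 in the as-deposited reading; 2 members in each reading had an unadjusted p under 0.05, beside 383 and 486 of all genes. Over resolved features 0 of 35 members passed in either reading, as did 0% of 6731 genes, and the unadjusted counts were 0 members (42 of all genes) in the peptide reading and 11 members (393 of all genes) in the as-deposited reading. The lowest adjusted p was 0.9999 in the peptide reading and 0.825 as deposited, or 0.492 over resolved features. Among 94 member features 0 passed in either reading, beside 0% of 45220 features in the peptide reading and 0% of 45176 as deposited.

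Under the peptide reading the members' coefficients, taken as ApoE-mimetic over control, were small and mostly above 0. Over resolved features 30 of 35 were above 0 with a median of 0.21, beside 59.0% of all such genes and a median of 0.04. Tap2 had the highest of these, 0.43 (SE 0.27, n = 4 arrays), and ranged from 0.20 to 0.66 when 1 replicate was left out of the fit. RT1-DMb had the lowest, -0.29. RT1-Ba had 0.36 (SE 0.21) and Psme2 0.25 (SE 0.21). Class I chains had a median of 0.26, class II chains 0.21 and supply and loading genes 0.14.

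Under the as-deposited reading the same arrays gave coefficients on the other side. Over resolved features 35 of 35 members were below 0 with a median of -0.49, beside 90.7% of all such genes and a median of -0.33. RT1-N3 had -0.70 (SE 0.21, n = 4 arrays), Tapbp -0.66 (SE 0.21), RT1-Db1 -0.64 (SE 0.21), RT1-Ba -0.63 (SE 0.21) and Psme1 -0.51 (SE 0.22). Class II chains had a median of -0.63, class I chains -0.49 and supply and loading genes -0.42. The side on which the coefficients lie thus changes with the reading, and the table does not settle which reading holds. No member passed the test in either reading, so a difference between the ApoE-mimetic and control grafts was not shown in either direction.

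**Figure D4:**
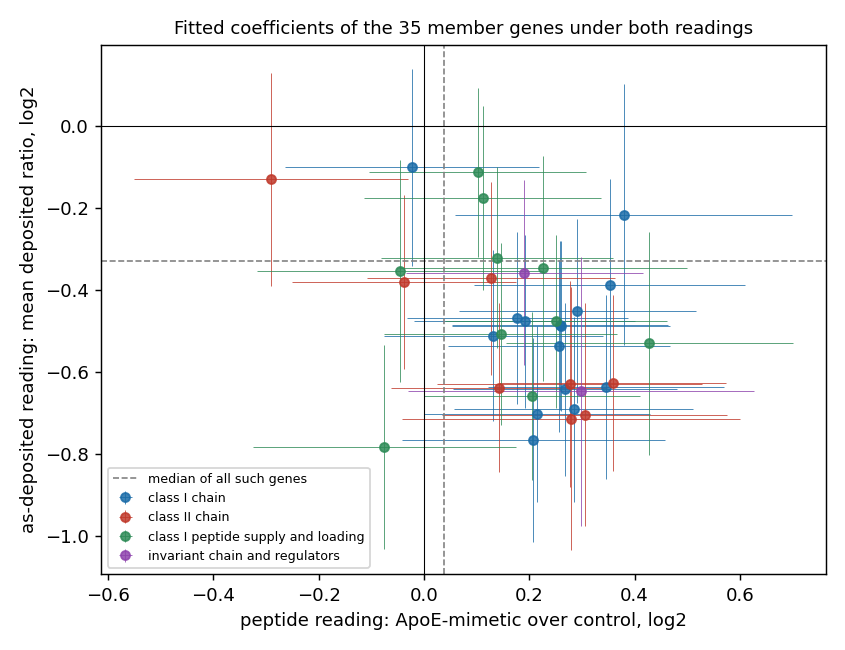
Fitted limma coefficients of the 35 member genes with resolved features, on the log2 scale, under the peptide reading (horizontal axis) and the as-deposited reading (vertical axis); bars are SEs over 4 arrays and dashed lines the medians of all 6731 such genes. Most points lie right of 0 and all lie below 0, and 0 of 35 passed the test in either reading.

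In the peptide reading, the 2 members with the smallest unadjusted p over all features, RT1-CE6 and RT1-M5, had no resolved feature. RT1-CE6, annotated in RefSeq as a long non-coding RNA, had ratios of 2.66, -0.96, 2.24 and -2.96 and a peptide coefficient of 2.20 (SE 0.42, n = 4 arrays), with an as-deposited coefficient of 0.24. RT1-M5 had 0.0041, 2.74, -1.80 and 1.72 and a peptide coefficient of -1.56 (SE 0.42). Each has 1 feature, dim on 3 arrays for RT1-CE6 and on replicate 1 for RT1-M5. RT1-T18 had an as-deposited coefficient of -0.88 (SE 0.27) by the mean of a dim and a resolved feature, and -0.45 (SE 0.22) by the resolved one. Its peptide coefficient of -0.19 (SE 0.27) turned to 0.29 (SE 0.22) without the dim feature. The coefficients of B2m, 0.0041 and 0.013 (SE 0.27 for both), rest on saturated values and compare no levels. Cd74 had 0.07 and -0.33 (SE 0.34 for both), and Ciita 0.19 and -0.36 (SE 0.28 for both) in the peptide and as-deposited reading. RT1-M6-2 showed how far features of 1 gene can part: a feature dim on replicates 2 to 4 had 4.33 on replicate 1 and -2.74 on replicate 3, where the other was saturated.

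Other genes of the pathway gave 0 calls in either direction and reading, over all genes. Of 13 interferon gamma signal and target genes 12 were measured, with a median peptide coefficient of 0.21 and a median as-deposited coefficient of -0.35. On replicate 1 all 9 resolved ones were above the median gene, and 2, 2 and 1 were on replicates 2 to 4. Ido1, which degrades tryptophan, had -0.37, -3.83, -0.48 and -2.27, with coefficients of 1.31 and -1.74 (SE 0.36 for both), and Cxcl9, a chemokine for T cells, had -0.08, -0.89, -0.47 and -1.53. The 15 class II regulators and endosomal processing genes, among them the RFX and NF-Y subunits that bind class II promoters, had medians of -0.03 and -0.41. Rfx5 had a peptide coefficient of -0.57 (SE 0.36), by features that were not resolved, and Nfyc -0.28 (SE 0.29). The 12 class I folding, trimming and proteasome genes outside the members had medians of 0.13 and -0.37, with Psme3 at 0.25 (SE 0.27) and Tapbpl at 0.21 (SE 0.30). Lnpep, which had no resolved feature, had a peptide coefficient of -0.33 (SE 0.38). The 6 class I-like molecules encoded outside the RT1 symbols had 0.04 and -0.20, with Cd1d1, which shows lipids to natural killer T cells, at 0.46 (SE 0.30). Fcgrt of the same list lay on the other side, with a peptide coefficient of -0.44 (SE 0.39). For comparison, the medians over all 14871 genes were 0.04 and -0.24.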

How the data were processed

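Deposited values were log2 ratios per array feature; per the labels' protocols, total RNA was labelled with an Agilent two-colour kit in a balanced dye swap. For the scanner, background correction, normalization, log base and direction, the sources used here give nothing; base 2 was assumed. Features were named through the array annotation, with symbols updated by gene number in a RefSeq table of GRCr8 (25353 features with 1 symbol, 48 with several, 19819 with none), and all 94 member features matched. A gene's value is the mean over its features, missing values left out; 8 genes lacked an as-deposited coefficient because an orientation had no value. Ratios were fitted with limma 3.58.1 in R 4.3.3 (lmFit, eBayes) on all genes or features with an orientation and a dye term, adjusted by Benjamini-Hochberg at 0.05. SEs and p-values rest on the spread within each dye orientation, as moderated by eBayes. The script was tested on simulated data. The number of arrays limits the precision. No levels were used, so the labelled tissue was checked only by proximal tubule markers having resolved features. Members and lists were chosen with earlier results of these data known. Members with resolved features have their values printed; fitted values are given for up to 2 members a role with the smallest unadjusted p in each reading, B2m, Cd74 and Ciita, and for up to 4 genes a list. The alternatives were 1 coefficient only, centring, scaling, resolved features only, the median over features, robust eBayes and leaving out each replicate.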

Additional observations from a re-analysis of the deposited data

Results flagged for a closer look

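Over the 4 arrays, 38 sets of values were tested for 1 array standing apart from the other 3 by Dixon's ratio at its usual critical value, and 3 passed; chance alone gives about 1 in 20. RT1-Bb passed with a ratio of 0.959, its 0.18 on replicate 1 against -1.03, -0.98 and -0.99. The median of the class II chains, of which RT1-Bb is 1, passed at 0.872, with -0.06 on replicate 1 against -0.80, -0.70 and -0.80. These values were taken as deposited, so the offsets of the arrays enter the ratios. Minus the array's median gene, the class II median was 0.36, -0.72, -0.57 and -0.15 on replicates 1 to 4. Dixon's ratio was not taken on such values. Tap1 passed at 0.839, with -1.17 on replicate 4 against -0.17, 0.02 and -0.07.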

How the results depend on the processing

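Member genes called numbered 0 under every alternative in both readings, as did all genes called; all features called ranged from 0 to 1 in the peptide reading (1 without replicate 1) and from 0 to 3 in the as-deposited reading (3 without replicate 3). Among member coefficients refitted with all arrays 146 kept their sign and 4 turned: RT1-T18 turned to 0.29 over resolved features, and B2m in the peptide reading turned to -0.063 with centred arrays, -0.013 with scaled arrays and -0.00028 by the median over features. Leaving out 1 replicate, the peptide coefficient of Cd74 ranged from -0.26 to 0.40 and that of B2m from -0.024 to 0.032. As deposited, Cd74 ranged from -0.66 to 0.00017, B2m from -0.014 to 0.041 and RT1-CE6 from -0.26 to 0.74; Cd74 in both readings and RT1-CE6 turned without replicate 2. Without 1 replicate, the coefficients that kept their sign but moved by over 1.5 times were, in the peptide reading, Tap2 (0.20 to 0.66), Ciita (0.06 to 0.32), Psme1 (0.03 to 0.26), RT1-Db1 (0.25 to 0.52), RT1-N3 (0.14 to 0.29) and RT1-T18 (-0.26 to -0.12), and as deposited Tap2 (-0.76 to -0.30), Ciita (-0.49 to -0.23) and RT1-M5 (0.21 to 1.12). Refits with all arrays also moved coefficients that kept their sign. Centring raised every as-deposited coefficient refitted here, so those below 0 came nearer to 0. Cd74 went from -0.33 to -0.10, Ciita from -0.36 to -0.13, Psme2 from -0.48 to -0.25 and RT1-Ba from -0.63 to -0.40. RT1-CE6, above 0, went from 0.24 to 0.47. Class I minus class II on replicate 4 became 0.036 over single features. The count of members below 0 on all arrays was chosen after seeing the data. With centred arrays it fell from 22 to 3, and that of class I chains from 12 to 0. Without 1 replicate these counts ranged from 23 to 27 of 35 members and from 12 to 14 of 15 class I chains. The background was then 31.9% to 45.5% of all genes with resolved features. Leaving out an array can only keep or raise such a count. No paired analysis was possible because each ratio already holds its pair. The B2m values rest on saturated features. Dim or saturated features leave 13 genes with no resolved feature and are part of the mean of 12 more.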
